A study of Mus musculus with 10 samples.

Results

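Expression of 9 genes of the oxygen-sensing pathway was examined in primary mouse hepatocytes treated with glucagon, a hormone of fasting that acts on liver cells through cyclic AMP. The genes were Egln1, Egln2, Egln3, Hif1a, Epas1, Vhl, Vegfa, Bnip3 and Pdk1. They were chosen by symbol around the response of Egln3 to glucagon, so the glucagon values of these 9 genes are given as a description and without a test. For each gene the probe set with the highest mean over the 10 libraries was used among those annotated to that symbol alone. All 9 of 9 genes were measured, of 16401 genes with such a probe set, and 9 were among the 11480 genes left after a filter on low signal. The question was whether the increase of Egln3 came with changes of other hypoxia-responsive genes.

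Hypoxia-inducible factors are transcription factors whose alpha subunits, HIF-1 alpha from Hif1a and HIF-2 alpha from Epas1, are made continuously and destroyed when oxygen is present. The prolyl hydroxylases encoded by Egln1, Egln2 and Egln3 (PHD2, PHD1 and PHD3) use oxygen to mark the alpha subunits, and the Vhl protein then directs their ubiquitination. At low oxygen the alpha subunits persist and raise targets such as Vegfa, Bnip3 and Pdk1, and Egln3 and Egln1 are themselves such targets.

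Cells came from male C57BL6/J mice aged 10 weeks and were transduced for 72 hours with adenovirus at 2 to 4 plaque-forming units per cell. The virus carried a hairpin RNA against Wdr5 (shWDR5), one against Kat2b (shKAT2B) or a non-specific one (shNS), so all groups had received adenovirus and a hairpin. WDR5 is a core subunit of histone methyltransferase complexes and KAT2B is a histone acetyltransferase. Cells then received 100 nM glucagon or phosphate-buffered saline (PBS) for 90 minutes. The groups were shWDR5 glucagon with 2 libraries, shWDR5 PBS with 1, shKAT2B glucagon with 2, shKAT2B PBS with 1, shNS glucagon with 2 and shNS PBS with 2. RNA of 3 culture dishes was pooled in each library, and nothing in the labels says that libraries A and B came from separate animals, so p-values speak for the spread among libraries, which may be technical. A single hairpin was used for each target, and the array measures RNA and not protein.

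Each hairpin lowered its target. Wdr5 stood at 8.32, 8.40 and 8.19 (log2 intensity) in the shWDR5 libraries, against 9.98 to 10.07 in the other libraries. Kat2b stood at 6.92, 6.58 and 6.60 in the shKAT2B libraries, against 9.40 to 9.59 in the others. Library medians lay between 282.1 and 298.2 in intensity. The libraries also split into 2 sets by the leading component of what arm and treatment left over, which held 78 percent of the residual variance. The first set holds glucagon library A of each arm and shNS PBS A, and the second set holds 1 library of each group. Summed intensity of Kupffer cell and leukocyte markers was 8148 to 10324 in the first set and 12541 to 17653 in the second, and that of endothelial markers was 4804 to 5333 and 6035 to 7996. Stellate cell and fibroblast markers went the other way, at 25535 to 26357 in the first set and 21974 to 22978 in the second. The sums of hepatocyte markers overlapped between the sets. Between treatments these sums overlapped, at 8148 to 17653 with glucagon and 8314 to 16381 with PBS for Kupffer cells and leukocytes. In such bulk samples fewer cells of a type and less RNA per cell cannot be told apart.

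The promoters of the 3 hydroxylase genes are shown so that Egln3 can be set beside its closest relatives, whose glucagon differences were small. Each is the stretch of 250 bases before the RefSeq start site in the mouse build GRCm38.p6, read 5′ to 3′ on the gene's strand, and all 3 genes lie on the minus strand. Egln3 is at chr12:54203875-54204124, Egln1 at chr8:124949255-124949504 and Egln2, at the first of its RefSeq starts, at chr7:27166803-27167052. Capitals mark TGACG, the shorter form of the cAMP response element, and the hypoxia response element cores ACGTG and GCGTG, each searched on both strands.
Egln3: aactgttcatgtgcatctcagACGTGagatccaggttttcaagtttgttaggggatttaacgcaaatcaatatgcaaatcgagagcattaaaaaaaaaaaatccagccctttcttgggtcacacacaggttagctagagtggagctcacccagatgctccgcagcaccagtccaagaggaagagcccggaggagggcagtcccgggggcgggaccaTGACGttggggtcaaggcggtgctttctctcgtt
Egln1: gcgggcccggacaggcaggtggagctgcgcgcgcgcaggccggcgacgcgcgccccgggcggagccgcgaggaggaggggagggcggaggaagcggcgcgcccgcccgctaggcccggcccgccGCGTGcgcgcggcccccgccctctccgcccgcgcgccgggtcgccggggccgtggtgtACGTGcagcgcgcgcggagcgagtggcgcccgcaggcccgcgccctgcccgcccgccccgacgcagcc
Egln2: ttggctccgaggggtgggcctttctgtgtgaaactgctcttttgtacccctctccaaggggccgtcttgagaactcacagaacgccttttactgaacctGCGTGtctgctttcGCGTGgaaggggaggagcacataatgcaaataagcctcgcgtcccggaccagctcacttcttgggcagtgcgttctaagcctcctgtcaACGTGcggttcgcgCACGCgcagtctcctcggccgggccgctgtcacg
The Egln3 window held 1 TGACG, 34 bases before the start, and 1 ACGTG, 229 bases before it. The Egln1 window held no TGACG, with ACGTG at 68 and GCGTG at 126 bases before the start. The Egln2 window also held no TGACG and had 4 hypoxia cores, of which the one 34 bases before the start lies on the other strand and reads CACGC here. Such short motifs are common: of 32851 mouse promoter windows of this length, 17.8 percent held TGACG, 16.6 percent ACGTG and 28.2 percent GCGTG, and 38.6 percent held either hypoxia core.

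RefSeq windows were found for 8 of the 9 genes, 11 windows in all. The full cAMP response element TGACGTCA, present in 1.55 percent of mouse windows, was in 0 of these 11. Besides Egln3, TGACG occurred in the window of the second Egln2 start, 215 bases before it, and in that of the second Vegfa start, 209 bases before it. Bnip3 held 5 hypoxia cores, Hif1a 3 and the first Pdk1 start 1, counting both strands, on which some of these cores overlap, while Vhl and the first Vegfa start held 0. These matches are a description of letters, not of binding.

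Egln3 stood far higher with glucagon than with PBS. Its log2 intensity was 10.44 and 10.78 with glucagon in shWDR5 cells, against 8.95 with PBS. In shKAT2B cells it was 10.78 and 10.66 with glucagon, against 8.76 with PBS. In shNS cells it was 10.66 and 10.72 with glucagon, against 8.12 and 8.23 with PBS. All 6 glucagon libraries lay above all 4 PBS libraries, and the levels with glucagon were close to each other in the 3 arms. Over the arms the difference between glucagon and PBS was 2.11 ± 0.14 on the log2 scale (± is the model's standard error here and below), a 4.31-fold difference and the rank 6 from the highest of 11480 genes. By arm it was 1.66 ± 0.16 in shWDR5, 1.96 ± 0.16 in shKAT2B and 2.51 ± 0.13 in shNS cells. Within the second set of libraries, where every group has 1 library, it was 1.83 in shWDR5, 1.90 in shKAT2B and 2.49 in shNS cells.

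The other hydroxylases stood nearly level between treatments. Egln1, the main hydroxylase acting on HIF-1 alpha in most cells, had 9.37 and 9.38 with glucagon and 9.28 with PBS in shWDR5 cells. In shKAT2B cells Egln1 had 9.86 and 9.72 with glucagon and 9.71 with PBS, and in shNS cells 9.68 and 9.66 with glucagon and 9.60 and 9.63 with PBS. In each arm the glucagon libraries were slightly above the PBS libraries, and the difference over the arms was 0.07 ± 0.05. Egln2, which also hydroxylates the alpha subunits, had 9.77 and 9.60 with glucagon and 9.63 with PBS in shWDR5 cells. It had 9.75 and 9.68 with glucagon and 9.57 with PBS in shKAT2B cells, and 9.81 and 9.68 with glucagon and 9.78 and 9.59 with PBS in shNS cells. Its libraries overlapped in shWDR5 and shNS cells, and the difference over the arms was 0.08 ± 0.06.

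**Figure D1:**
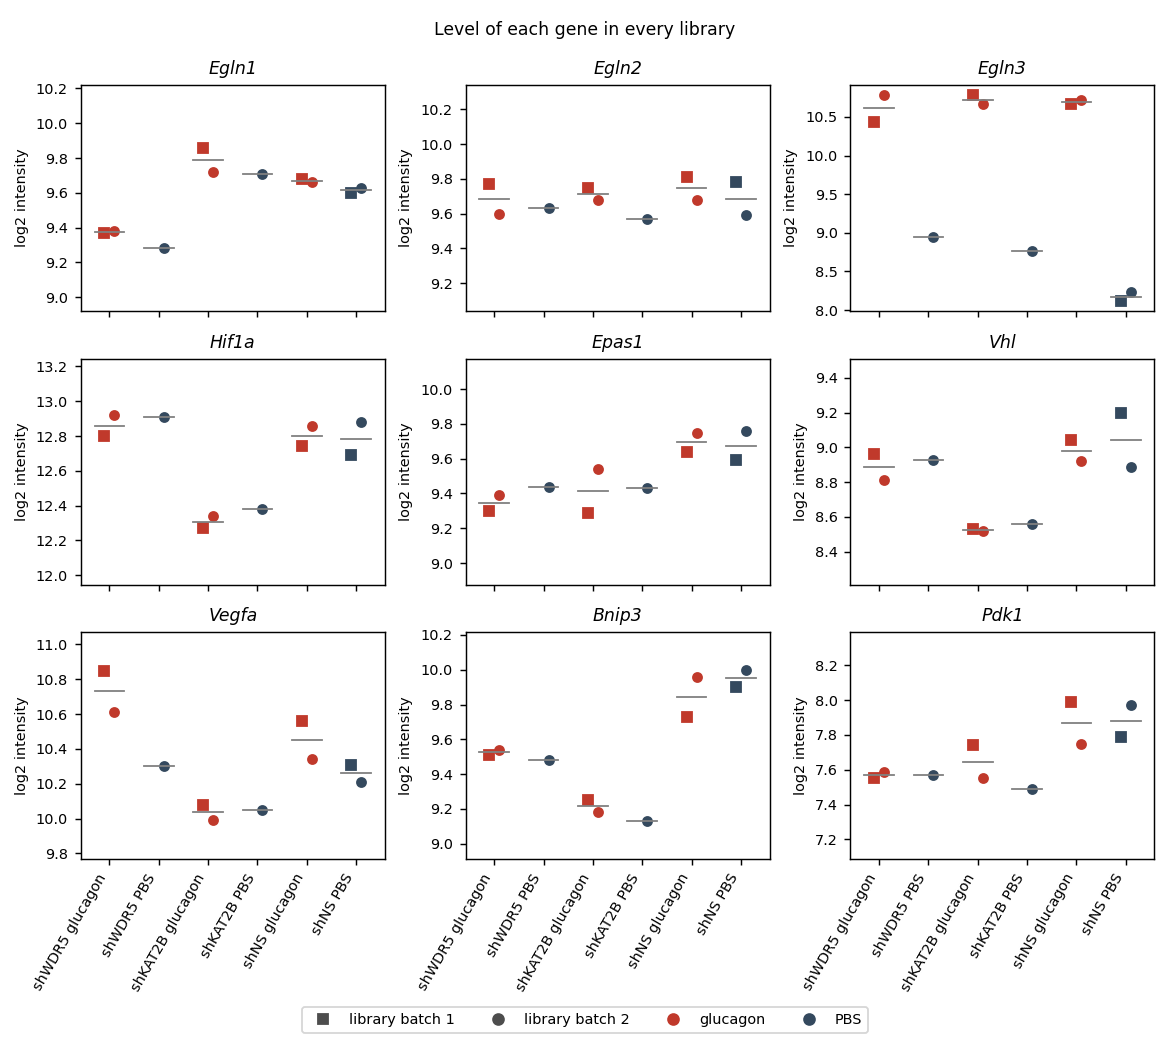
Log2 intensity of the 9 genes in each library, with groups along the horizontal axis, each point a library (squares for the first library set, batch 1, and circles for the second, batch 2; red for glucagon, dark blue for PBS) and each bar the mean of a group. The Egln3 panel spans a wider range than the others, and in it the glucagon libraries sit at 10.44 to 10.78 and the PBS libraries at 8.12 to 8.95.

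The transcription factors and their ubiquitin ligase component did not separate by treatment over the arms. Hif1a was 12.80 and 12.92 with glucagon and 12.91 with PBS in shWDR5 cells, 12.27 and 12.34 with glucagon and 12.38 with PBS in shKAT2B cells, and 12.74 and 12.86 with glucagon and 12.69 and 12.88 with PBS in shNS cells. Its difference between glucagon and PBS was -0.03 ± 0.05. Epas1 was 9.30 and 9.39 with glucagon and 9.44 with PBS in shWDR5 cells, 9.29 and 9.54 with glucagon and 9.43 with PBS in shKAT2B cells, and 9.64 and 9.75 with glucagon and 9.59 and 9.76 with PBS in shNS cells. Its difference was -0.02 ± 0.07, with libraries that overlapped in shKAT2B and shNS cells. Vhl was 8.96 and 8.81 with glucagon and 8.93 with PBS in shWDR5 cells, 8.53 and 8.52 with glucagon and 8.56 with PBS in shKAT2B cells, and 9.04 and 8.92 with glucagon and 9.20 and 8.89 with PBS in shNS cells. The Vhl difference was -0.05 ± 0.07, with libraries that overlapped in shWDR5 and shNS cells.

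Of the 3 target genes, Vegfa, a growth factor for blood vessels, had the largest glucagon difference, 0.20 ± 0.09 over the arms. It was 10.85 and 10.61 with glucagon and 10.30 with PBS in shWDR5 cells, 10.08 and 9.99 with glucagon and 10.05 with PBS in shKAT2B cells, and 10.56 and 10.34 with glucagon and 10.31 and 10.21 with PBS in shNS cells. The glucagon libraries were above the PBS libraries in shWDR5 and shNS cells and overlapped them in shKAT2B cells. By arm the difference was 0.43 ± 0.15, -0.01 ± 0.15 and 0.19 ± 0.12 in shWDR5, shKAT2B and shNS cells.

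Bnip3, a mitochondrial protein of mitophagy and cell death, was 9.51 and 9.54 with glucagon and 9.48 with PBS in shWDR5 cells. It was 9.25 and 9.18 with glucagon and 9.13 with PBS in shKAT2B cells, and 9.73 and 9.96 with glucagon and 9.90 and 10.00 with PBS in shNS cells. The glucagon libraries were slightly above the single PBS library in shWDR5 and in shKAT2B cells. The treatments overlapped in shNS cells, and the Bnip3 difference over the arms was -0.01 ± 0.07. Pdk1, a kinase that restrains pyruvate dehydrogenase, was 7.55 and 7.59 with glucagon and 7.57 with PBS in shWDR5 cells, 7.74 and 7.55 with glucagon and 7.49 with PBS in shKAT2B cells, and 7.99 and 7.75 with glucagon and 7.79 and 7.97 with PBS in shNS cells. Its difference was 0.04 ± 0.08. Apart from Egln3, then, the 8 genes lay between -0.05 and 0.20, and over all genes the median was 0.01.

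Other genes of the pathway were then examined in 6 lists with 114 symbols, of which 99 were measured and 89 tested. These genes were not among the 9, and they were tested for glucagon against PBS with limma. Benjamini-Hochberg adjustment was over all 11480 genes, and a gene passed at an adjusted p below 0.05. The lists, like the 9 genes, were drawn up with earlier results of these data known, so calls within them are no independent test. Of the 89 genes 1 was higher and 2 were lower with glucagon, where 0.679 percent of all tested genes were higher, 0.244 percent lower and 0.923 percent passed in either direction (106 genes). The median difference of the 89 genes was 0.03, against 0.01 for all genes. With the library set as a term of the fit, 6 of the 89 were higher and 6 lower, and the share of all genes passing was then 3.35 percent. The sets were taken from what the same fit left over, so p-values with this term can come out too small. Here and below they describe how calls shift and are no independent test.

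Hilpda, a HIF target that blocks triglyceride breakdown on lipid droplets, was the gene that rose. It stood at 10.84 and 10.58 with glucagon and 9.54 with PBS in shWDR5 cells, 10.34 and 10.55 with glucagon and 9.75 with PBS in shKAT2B cells, and 10.68 and 10.68 with glucagon and 9.67 and 9.61 with PBS in shNS cells. All glucagon libraries were above all PBS libraries, by 0.98 ± 0.09 (limma, adjusted p = 0.000929). Edn1, which encodes the vasoconstrictor endothelin-1 and is also a HIF target, fell. It stood at 8.67 and 8.35 with glucagon and 9.62 with PBS in shWDR5 cells, 9.04 and 8.66 with glucagon and 9.71 with PBS in shKAT2B cells, and 7.94 and 8.35 with glucagon and 9.72 and 9.60 with PBS in shNS cells. All glucagon libraries were below all PBS libraries, with a difference of -1.21 ± 0.14 (limma, adjusted p = 0.00467), the lowest value of the 11480 genes. Both calls held without any 1 library, with adjusted p up to 0.0116 for Hilpda and 0.0326 for Edn1.

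Among 17 tested genes of the pathway's machinery, such as the HIF partner Arnt and the asparaginyl hydroxylase Hif1an, Cited2 alone passed, and the median was 0.02. Cited2, which competes with the HIF alpha subunits for the coactivators p300 and CBP, stood at 12.86 and 12.76 with glucagon and 13.04 with PBS in shWDR5 cells. It stood at 12.71 and 12.54 with glucagon and 12.92 with PBS in shKAT2B cells, and 12.54 and 12.64 with glucagon and 13.04 and 12.99 with PBS in shNS cells. It was lower in all glucagon libraries, with a difference of -0.33 ± 0.05 (limma, adjusted p = 0.0213), but the call held only when the library left out was shWDR5 glucagon A or shKAT2B glucagon A, and was lost without any of the other 8 (adjusted p up to 0.107). Arnt2, the next largest difference in this list, was at 0.14 ± 0.11.

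The HIF targets of glucose uptake and glycolysis held no called gene. Of 18 tested, 0 were higher and 0 lower, and their differences lay between -0.05 and 0.14. The largest were Pfkfb3, an activator of glycolysis, at 0.14 ± 0.15, and the glucose transporter Slc2a1 at 0.12 ± 0.06. Among 22 targets in mitochondria, mitophagy and stress, 1 was higher (Hilpda) and 0 lower. The next largest difference was that of Zfp395 at 0.50 ± 0.11 (limma, adjusted p = 0.0968). With the library set as a term, 4 of the 22 were higher and 2 lower, with 3.35 percent of all genes passing. Those higher were Hilpda, Zfp395, Ndrg1 and Bhlhe40, and those lower were Bhlhe41 and Wsb1. Among 25 targets that are secreted, vascular or bound to iron and matrix, 0 were higher and 1 lower (Edn1). The growth factor gene Pdgfb stood at -0.51 ± 0.23 (limma, adjusted p = 0.962). With that term 1 of these 25 was higher and 3 were lower, and 0 of the 18 glycolysis genes passed.

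The nearest relatives of Pdk1 and Vegfa did not pass either. Of 5 other pyruvate dehydrogenase kinases and phosphatases, 0 passed, with the phosphatase Pdp1 at 0.29 ± 0.07 (limma, adjusted p = 0.227) and the kinase Pdk4 at 0.17 ± 0.25. Of 2 other VEGF genes 0 passed, and Vegfb and Vegfc each stood at 0.03. With the library set as a term, Pdp1, at 0.33 ± 0.05, passed (limma, adjusted p = 0.00251), as did Pdgfb at -0.71 ± 0.05 (3.18e-06) and Zfp395 at 0.57 ± 0.07 (0.000129).

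**Figure D2:**
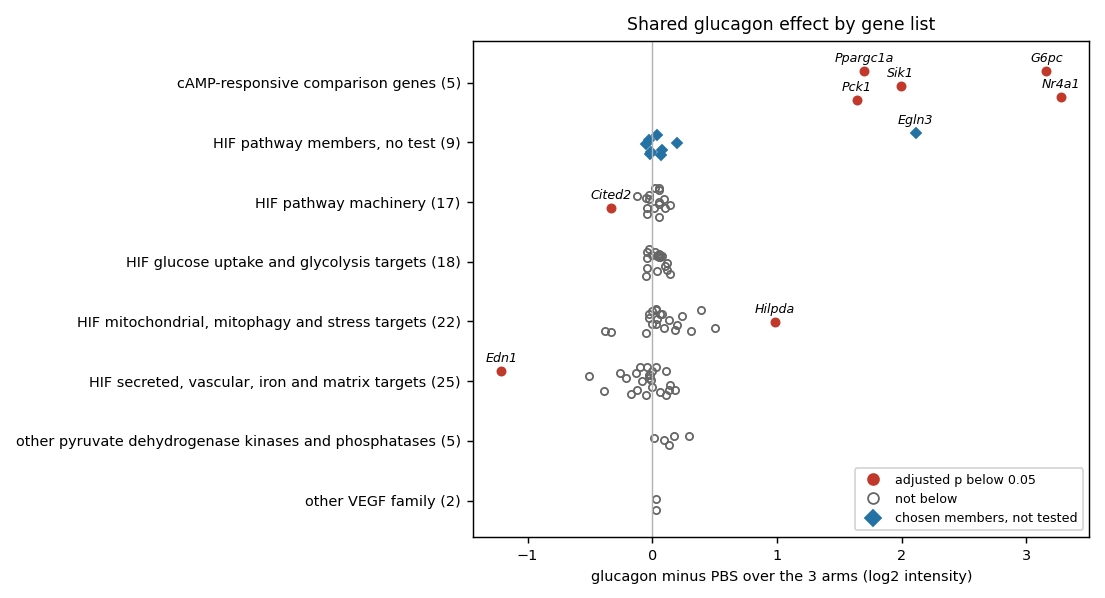
Difference between glucagon and PBS over the 3 arms (log2 intensity, horizontal axis) for each tested gene of the pathway lists, for the 9 chosen genes (diamonds, no test) and for 5 of the genes known to respond to cyclic AMP, with the number of genes per list in brackets. Filled circles passed at an adjusted p below 0.05. Egln3 is at 2.11. The 5 cyclic AMP genes shown lie at 1.64 to 3.28, while the 12 tested genes of their list span 0.13 to 3.28. Of the hypoxia lists Hilpda, Edn1 and Cited2 passed, and the other genes lie between -0.51 and 0.50.

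Genes known to respond to cyclic AMP in hepatocytes were set beside Egln3. Of 12 tested genes of this kind 9 were higher with glucagon, where 0.679 percent of all tested genes were higher. The list was chosen for such a response and with earlier results of these data known, so the count is a description and no test. The 12 differences lay between 0.13 and 3.28, and the 5 genes named here are all among the 9 that passed. The nuclear receptor gene Nr4a1 was at 3.28 ± 0.15 and the salt-inducible kinase gene Sik1 at 1.99 ± 0.08. The coactivator gene Ppargc1a was at 1.70 ± 0.07, and the gluconeogenic genes G6pc and Pck1 at 3.16 ± 0.33 and 1.64 ± 0.30. Across the 10 libraries the genes whose log2 values were most like those of Egln3, by Pearson correlation, were Nr4a2 (0.990), Herc4 (0.974), Pde4b (0.971), Slc7a2 (0.969) and Sik1 (0.968). Of the other 8 hypoxia genes the highest correlation was 0.322, for Egln2, and the lowest -0.318, for Vhl. By arm, the glucagon difference of Sik1 was 1.80 in shWDR5, 1.81 in shKAT2B and 2.22 in shNS cells, and that of Nr4a1 was 3.46, 2.60 and 3.61 in the same arms. The 10 points share the split by treatment, so these correlations describe it and nothing more.

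**Figure D3:**
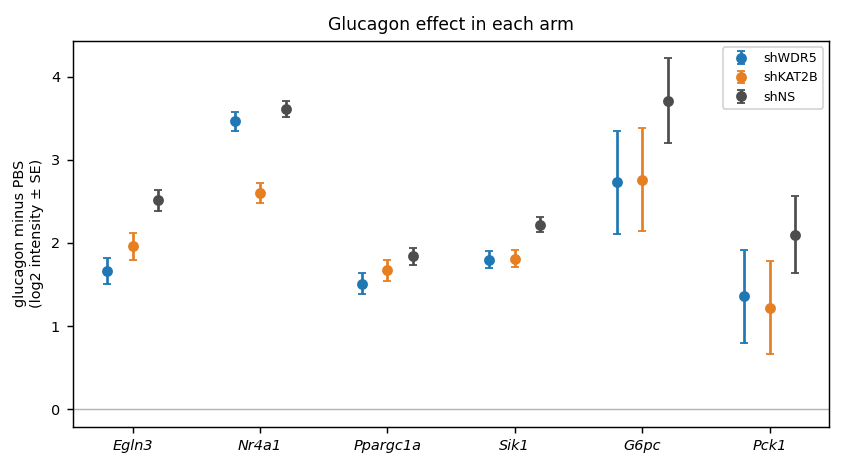
Difference between glucagon and PBS (log2 intensity, vertical axis) in shWDR5, shKAT2B and shNS cells for Egln3 and 5 genes known to respond to cyclic AMP, with bars for the standard error. Egln3 lies at 1.66, 1.96 and 2.51 in these arms, and Sik1 at 1.80, 1.81 and 2.22, with all 6 genes highest in shNS cells.

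With PBS, Egln3 stood higher in the single libraries of both depleted arms than in the shNS libraries. Within the second set of libraries, Egln3 with PBS was 0.72 higher in shWDR5 than in shNS cells and 0.53 higher in shKAT2B than in shNS cells (log2, single libraries, no test of its own). With glucagon the shWDR5 libraries differed from the shNS libraries of their own set by -0.22 and 0.06, and the shKAT2B libraries by 0.12 and -0.06. Both lone PBS libraries lay above both shNS PBS libraries, while the glucagon libraries of the arms overlapped. The glucagon difference of Egln3 minus that in shNS cells was -0.85 ± 0.21 in shWDR5 cells and -0.55 ± 0.21 in shKAT2B cells. These values are given without a test, since Egln3 was chosen for its glucagon response in the same libraries, and each rests on 1 PBS library in the depleted arm. In limma 0 of 11480 genes (0 percent) passed in either interaction, with 20 genes for WDR5 and 36 for KAT2B at an unadjusted p below 0.05. Both counts lie far below the share of 0.05 that unchanged genes would give, so this test was conservative. The lack of calls therefore does not show that interactions were absent. For the other 8 genes the interactions lay between -0.11 and 0.24 for WDR5 and between -0.20 and 0.19 for KAT2B.

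WDR5 depletion lowered 3 of the 9 genes and raised 0, where 6.17 percent of all tested genes were lower, 4.69 percent higher and 10.9 percent passed in either direction. The median of the 9 was -0.10, against -0.01 for all genes. Egln1 fell by 0.31 ± 0.06 (limma, adjusted p = 0.0139), with 9.28 to 9.38 in the 3 shWDR5 libraries and 9.60 to 9.68 in the 4 shNS libraries. Bnip3 fell by 0.39 ± 0.08 (adjusted p = 0.0178), with 9.48 to 9.54 in shWDR5 and 9.73 to 10.00 in shNS libraries. Epas1 fell by 0.30 ± 0.08 (adjusted p = 0.0491), with 9.30 to 9.44 in shWDR5 and 9.59 to 9.76 in shNS libraries. Pdk1 did not pass, at 7.55 to 7.59 in shWDR5 and 7.75 to 7.99 in shNS libraries (-0.31 ± 0.09, limma, adjusted p = 0.0612).

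The remaining genes did not pass for WDR5 in this fit. With the library set as a term, Pdk1 (-0.30 ± 0.08, limma, adjusted p = 0.0132) and Vegfa (0.23 ± 0.07, adjusted p = 0.0276) passed too, and the share of all genes passing was then 36.8 percent. In glucagon libraries alone 0 of the 9 passed, with 0.00871 percent of all genes. Without that term Egln3 stood at 0.27 ± 0.17, Vegfa at 0.20 ± 0.10, Hif1a at 0.09 ± 0.06, Vhl at -0.10 ± 0.09 and Egln2 at -0.06 ± 0.08 (limma, adjusted p = 0.271 to 0.673). The 3 calls were close to the threshold. That of Egln1 was lost without shNS glucagon A (adjusted p = 0.0585) or shWDR5 PBS A (0.102), and that of Bnip3 without shWDR5 glucagon B (0.0515) or shWDR5 PBS A (0.122). That of Epas1 held without shNS PBS A or shKAT2B glucagon A and was lost without any of the other 8 (adjusted p up to 0.152). Without shWDR5 PBS A 0 of the 9 genes passed, and without shNS glucagon A or shWDR5 glucagon B 1 passed. Within library sets Egln1 differed by -0.31 and -0.28 with glucagon and -0.35 with PBS, Bnip3 by -0.22, -0.42 and -0.52, and Epas1 by -0.34, -0.36 and -0.32.

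KAT2B depletion lowered 3 of the 9 genes and raised 0, where 8.95 percent of all tested genes were lower, 6.66 percent higher and 15.6 percent passed in either direction. The median of the 9 was -0.29, against 0.01 for all genes. Bnip3 fell by 0.71 ± 0.08 (limma, adjusted p = 0.000826), with 9.13 to 9.25 in the 3 shKAT2B libraries and 9.73 to 10.00 in the 4 shNS libraries. Hif1a fell by 0.46 ± 0.06 (adjusted p = 0.00163), with 12.27 to 12.38 in shKAT2B and 12.69 to 12.88 in shNS libraries. Vhl fell by 0.47 ± 0.09 (adjusted p = 0.00795), with 8.52 to 8.56 in shKAT2B and 8.89 to 9.20 in shNS libraries. The calls of Bnip3 and Hif1a held without any 1 library (limma, adjusted p up to 0.0144 and 0.0167). That of Vhl was lost without shKAT2B PBS A (adjusted p = 0.0661).

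Within library sets the KAT2B differences kept their direction. Hif1a differed by -0.47 and -0.52 with glucagon and -0.50 with PBS, Vhl by -0.51, -0.40 and -0.33, and Bnip3 by -0.48, -0.78 and -0.87. Vegfa, at -0.35 ± 0.10 (limma, adjusted p = 0.0521), Pdk1, at -0.29 ± 0.09 (0.0654), and Epas1, at -0.26 ± 0.08 (0.0661), missed the threshold. With the library set as a term of the fit these 3 passed too, at adjusted p = 0.00434, 0.0173 and 0.000603, where 41.5 percent of all genes passed. In glucagon libraries alone 0 of the 9 passed. Egln1 stood at 0.11 ± 0.06, Egln2 at -0.06 ± 0.08 and Egln3 at 0.28 ± 0.17, and none of them passed.

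**Figure D4:**
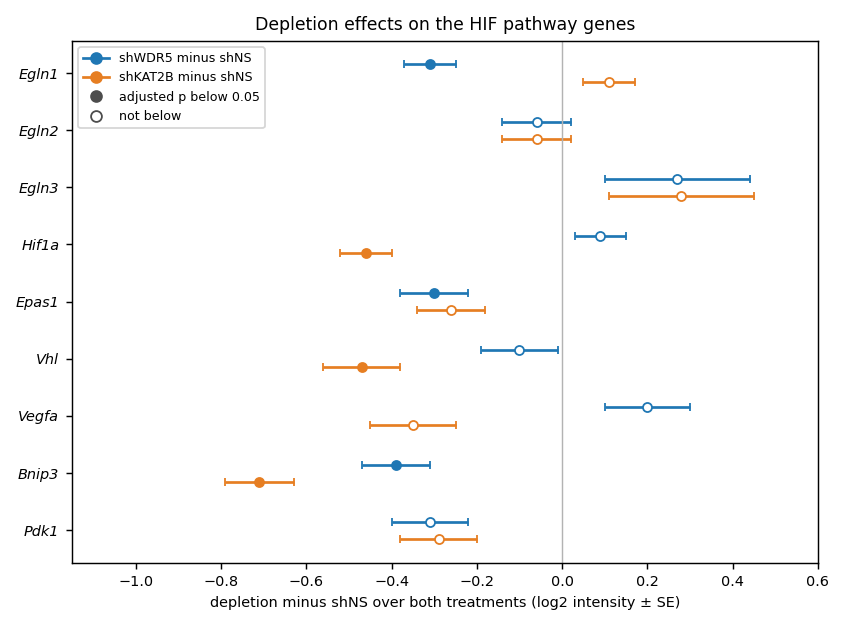
Difference of shWDR5 and of shKAT2B from shNS over both treatments (log2 intensity, horizontal axis) for the 9 genes, with bars for the standard error and filled points where the adjusted p was below 0.05. Egln1 (-0.31) and Epas1 (-0.30) passed for WDR5, Hif1a (-0.46) and Vhl (-0.47) for KAT2B, and Bnip3 for both (-0.39 and -0.71).

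Bnip3 had another probe set, feature 10568785, besides the one used, feature 10414269. It gave -0.26 for WDR5 (limma, adjusted p = 0.183) and -0.54 for KAT2B (adjusted p = 0.0123), so the WDR5 call for Bnip3 rests on the choice of probe set. The other 8 genes had 1 probe set each.

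The depletions were also set against each other, shKAT2B minus shWDR5, since an effect called for one and not for the other is no test of a difference. Of the 9 genes 1 was higher and 4 were lower in shKAT2B cells, where 11.2 percent of all genes were higher, 11.5 percent lower and 22.7 percent passed in either direction. Egln1 was higher in shKAT2B than in shWDR5 cells by 0.42 ± 0.06 (limma, adjusted p = 0.00198), with 9.71 to 9.86 in shKAT2B and 9.28 to 9.38 in shWDR5 libraries. Hif1a was lower (-0.55 ± 0.06, adjusted p = 0.000639), as was Vegfa (-0.55 ± 0.11, adjusted p = 0.00747). Vhl, at -0.36 ± 0.09 (adjusted p = 0.0221), and Bnip3, at -0.32 ± 0.08 (adjusted p = 0.0229), also passed. The calls of Egln1, Hif1a and Vegfa held without any 1 library, while those of Vhl and Bnip3 were lost without shWDR5 glucagon A, shWDR5 PBS A, shKAT2B glucagon B or shKAT2B PBS A, which leaves 3 genes called, and that of Bnip3 also without shWDR5 glucagon B. Epas1 (0.04 ± 0.09), Pdk1 (0.02 ± 0.10), Egln3 (0.01 ± 0.18) and Egln2 (0.00 ± 0.08) did not pass.

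Of the 89 other pathway genes, 9 were higher and 3 lower after WDR5 depletion, where 4.69 percent of all tested genes were higher and 6.17 percent lower. A fit with the library set as a term had 19 higher and 17 lower, with 36.8 percent of all genes passing, and in glucagon libraries alone 0 passed. Aldoc, a glycolytic aldolase, fell by 0.81 ± 0.07 (limma, adjusted p = 0.000841), and the chemokine gene Cxcl12 rose by 0.66 ± 0.09 (adjusted p = 0.00372). The transferrin receptor gene Tfrc (0.58 ± 0.15), the collagen lysyl hydroxylase gene Plod2 (0.56 ± 0.12), the secreted glycoprotein gene Stc2 (0.46 ± 0.10) and the mTORC1 inhibitor gene Ddit4 (0.45 ± 0.10) rose as well (adjusted p = 0.0197 to 0.0362). After KAT2B depletion 4 of the 89 were higher and 14 lower, where 6.66 percent of all tested genes were higher and 8.95 percent lower. The lower ones included 6 of 18 genes of glucose uptake and glycolysis. With the library set as a term 18 of the 89 were higher and 21 lower, with 41.5 percent of all genes passing, and 2 of the 18 glycolysis genes were higher and 8 lower. In glucagon libraries alone 0 of the 89 were higher and 2 lower, 1 of them in the glycolysis list, with 0.418 percent of all genes passing.

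Hamp, which encodes the iron hormone hepcidin, fell by 2.89 ± 0.38 after KAT2B depletion (limma, adjusted p = 0.00165), and Lox, a collagen crosslinking oxidase, fell by 1.83 ± 0.30 (adjusted p = 0.00397). The adenylate kinase gene Ak4 (-0.85 ± 0.18), the heme oxygenase gene Hmox1 (-0.66 ± 0.12) and Aldoc (-0.63 ± 0.07) fell, while Plod2 rose by 0.81 ± 0.12 (adjusted p = 0.000995 to 0.0123). In the machinery list 0 of 17 genes passed for either depletion, with 10.9 percent of all genes passing for WDR5 and 15.6 percent for KAT2B. Once the library set was a term, 1 was higher and 1 lower for WDR5 and 2 were higher for KAT2B.

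Cell type markers moved with the arms as well. Summed intensity of 9 hepatocyte markers was 46328 to 52239 in shWDR5, 46235 to 48825 in shKAT2B and 52228 to 58469 in shNS libraries, with 2 of 9 markers called lower for WDR5 and 4 of 9 for KAT2B, where 6.17 and 8.95 percent of all genes were lower. Once the library set was a term, 5 of 9 were lower and 1 higher for WDR5, and 8 of 9 were lower for KAT2B. That of 16 Kupffer cell and leukocyte markers was 10324 to 15066, 9496 to 17653 and 8148 to 13747 in the same order of arms, and 0 of 14 tested passed for either depletion, with medians of 0.26 and 0.47. In the fit with that term 6 of 14 were higher for WDR5 and 9 of 14 for KAT2B, with medians of 0.16 and 0.30. Marco and Itgam were below the filter on low signal. That of 14 endothelial markers was 5333 to 7215, 5000 to 7996 and 4804 to 6626, with 0 of 13 tested called for WDR5 and 1 for KAT2B, and with the library set as a term 2 and 7 were higher. Vwf was below the filter. Stellate cell and fibroblast markers summed to 21989 to 26037, 21974 to 25535 and 22446 to 26357, and 1 of 10 tested was called lower for each depletion. With the library set as a term 3 were higher and 1 lower for WDR5, and 5 were higher and 1 lower for KAT2B. Reln and Lum were below the filter. With that term 36.8 percent of all genes passed for WDR5 and 41.5 percent for KAT2B. The part of cell composition in the depletion differences was not tested.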

How the data were processed

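RNA of primary mouse hepatocytes was measured on Affymetrix Mouse Gene arrays in 10 libraries of 6 groups. The deposited table holds intensity on a linear scale for 26913 features, from 4.47 to 22694. Per the submitters' processing notes, Affymetrix Expression Console 1.1.1 was used; the way the arrays were normalized and the genome build are not given in the sources used here. Of the features, 17873 carried 1 gene symbol in the platform annotation, 1128 several and 7912 none, and 17815 were matched to RefSeq genes. Precision is limited by how many libraries there are, since arrays have no read depth.

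Values were taken as log2(intensity + 1), 1 probe set, that of highest mean, was used per gene (16401 genes, of which 847 had several), and the lowest 30 percent by mean were left out. Over the remaining 11480 genes, linear models were fitted in R 4.3.3 with limma 3.58.1 (lmFit, eBayes with a trend). An additive model of arm and treatment (6 residual degrees of freedom) gave the shared glucagon and depletion effects, and a model of the 6 groups (4 residual degrees of freedom) gave effects by arm and interactions. Groups of 1 library were assumed to vary like the others. Tests were two-sided with Benjamini-Hochberg adjustment, and the fit was run on simulated data. The simulated noise was independent between libraries and had no split into library sets. It therefore cannot show how the fit behaves with the split seen here. Tables were made in Python 3.11.15 (numpy 2.4.6, pandas 2.3.3) and figures with matplotlib 3.10.9. The members and gene lists were chosen with earlier results of these data known. Named genes are the 9 members, both hairpin targets, 5 cyclic AMP genes, the 5 genes most like Egln3, list genes called for glucagon with up to 2 of the largest differences per list, and up to 6 called list genes per depletion. The library sets were taken from the sign of the first residual component. A term taken from the residuals of the same fit lowers what is left over, so its p-values can be too small. Mitochondrial and stress list genes called for glucagon only with this term are named too. Other settings were other normalizations, filters, probe set rules, pseudocounts, a replicate block, a term for the library set, the second set alone and leaving out each library. Use of the other Bnip3 probe set and of glucagon libraries alone was added after seeing the data.

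Libraries with the same letter were checked for pairing. Differences between libraries A and B correlated at 0.72 to 0.84 between the groups with 2 libraries. The residuals of the lone PBS libraries, labelled A, correlated with those of glucagon A at -0.54 (shWDR5) and -0.77 (shKAT2B). With those of glucagon B they correlated at 0.16 and 0.47. Residuals of this fit cancel out within an arm, so negative correlations are partly built in and are no test of pairing. The letters were not taken to pair the samples.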

Additional observations from a re-analysis of the deposited data

How the results depend on the processing

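Egln3 kept its glucagon difference under every setting tried, at 2.02 to 2.29 when 1 library was left out, the highest without shWDR5 PBS A. The number of the 9 genes called, 3 for WDR5, was 5 with the library set as a term, 0 to 3 leaving out 1 library and 0 in glucagon libraries alone. For KAT2B, 3 became 5 with quantile normalization, 6 with a replicate block, 6 with the library set as a term and 0 in glucagon libraries alone. With the library set as a term the share of all genes passing was 36.8 percent for WDR5 and 41.5 percent for KAT2B. Without that term it was 10.9 and 15.6 percent. Shares with quantile normalization and the replicate block are not given here, so their counts have no background to be read against. For KAT2B minus WDR5, 5 became 3 to 5 leaving out 1 library and 1 in glucagon libraries alone. In glucagon libraries alone 0.00871 percent of all genes passed for WDR5, 0.418 percent for KAT2B and 2.61 percent for KAT2B minus WDR5. Glucagon libraries alone leave 2 libraries an arm, so their counts rest on fewer samples. The second set alone leaves 1 library a group, so its counts are not given. With the replicate block 1 of 9 genes came under the limma threshold in each interaction, against 0 without it and 0 with the library set as a term. That gene was Egln3, at -0.90 for WDR5 and -0.60 for KAT2B, and this is no test of it, since it was chosen for its glucagon response. The letters were not taken to pair the samples, and the block changed no direction. Of the pathway lists, 1 gene higher with glucagon became 2 without a filter, 5 with the replicate block, 6 with the library set as a term and 1 to 2 leaving out 1 library. The 2 genes lower became 1 without the trend, 5 with the replicate block, 6 with the library set as a term and 1 to 2 leaving out 1 library. For glucagon the share of all genes passing was 0.923 percent, and 3.35 percent with the library set as a term. The Epas1 call for WDR5 was lost with quantile normalization (adjusted p = 0.124), median-centred libraries (0.0952) and no filter (0.0645). Egln3 under WDR5 depletion was not called, and its value turned to -0.08 in glucagon libraries alone, against 0.27 over both treatments. The latter value takes in PBS, where the single shWDR5 library stood 0.72 above the shNS library of the second set. The causes of the other shifts were not tested. Interactions could not be computed in the second set alone or without the lone PBS library of the arm. A tally over settings covered the 9 genes in both depletions and the 5 called in KAT2B minus WDR5. It also took in the Egln3 interactions and the glucagon differences of Hilpda, Cited2 and Edn1. Direction and side of the threshold were kept in 538 values, which include those of genes not called in the main fit. The call was lost in 46 values and gained in 23, and 1 value changed direction.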
